A study of Mus musculus with 12 samples.

Results

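PSAP is the human gene that encodes prosaposin, and the data described here are the RbFox1 eCLIP peaks on it. The gene body was taken as chr10:71816298-71851325 of hg38 on the − strand, 35028 nt long. PSAP was chosen by its dense peaks at the gene end in the very list that is described here, so the number, place and enrichment of its peaks are given as a description with no test. Of the 24831 human peaks of that list, 22 overlapped the gene body on its own strand.

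Prosaposin is a precursor that is cut in the lysosome into saposins A, B, C and D. These small proteins help lysosomal enzymes to reach their sphingolipid substrates, for example saposin B with arylsulfatase A and saposin C with glucocerebrosidase, and loss of prosaposin leads to lysosomal storage disease. Uncut prosaposin is also secreted and has been studied as a factor that supports neurons. RbFox proteins bind the RNA element (U)GCAUG. In the nucleus they regulate alternative splicing, mostly from introns, and forms located in the cytoplasm bind the 3′ ends of mature mRNAs. The end of a transcript and its introns are therefore both places where RbFox1 is known to bind.

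The experiment used the 77-5 line, which is 1 clone of T-REx-293, a human embryonic kidney cell line. It carries a mouse Ntrk2 (TrkB-BAC) minigene and a RbFox1 gene under tetracycline control, which is switched on by doxycycline. The +Dox group had 2 immunoprecipitated libraries from cells given doxycycline for 48 h, at 0.5 mg/ml in the sample labels and 0.5 μg/ml in the figure legends, and the No Dox group had 2 from the same line without it. A line with a double cluster deletion in the minigene was also studied, but human peaks of that line were not analysed here, and 6 input libraries were assigned to no condition.

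In eCLIP, ultraviolet light links a protein to the RNA it touches, an antibody pulls the protein down and the attached RNA fragments are sequenced. For each peak the authors gave the log2 fold enrichment of +Dox over No Dox, computed from library-normalized read counts, and a −log10 p. Immunoprecipitated libraries are set against each other in this value, and input does not enter it. The amount of PSAP RNA in the +Dox and No Dox cells was not analysed here, and the enrichment is not corrected for it. The peaks were merged over replicates. They carry 1 value each, with no value per library and no read count, so the depth and the spread between the 2 replicates are unknown and no difference given below could be set against replicate error. The list is limited to peaks whose log2 fold enrichment is 3 or more and whose p is 0.001 or less. Its −log10 p stops at 400, with the next lower value at 150, so peaks at 400 have no order among themselves.

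All 22 PSAP peaks lay at the 3′ end of the gene, at chr10:71816421-71817373, a run of 953 nt that makes up 2.72% of the gene body. Counted from the 3′ end of the gene body, the run began 1075 nt before it and stopped 123 nt before it. The other 34075 nt of the gene held 0 peaks, of which 33952 nt lie on the 5′ side of the run. On the opposite strand the gene body held 0 peaks as well. A stretch without a peak may have reads that did not reach the thresholds of the list, and its values were not analysed here. The exons, the stop codon and the UTR borders of PSAP were not analysed here, nor was the sequence under the peaks, so the run is described by its distance from the gene end and not by gene region or motif.

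No other peak lay close to the run. Measured from the run, the next peak on the − strand of chromosome 10 was 317679 nt away, beyond the 5′ end of the gene. In the other direction it was 1451664 nt away. The nearest peak on the + strand was 276438 nt away. PSAP held 3.34% of the 658 peaks on the − strand of this chromosome.

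The log2 fold enrichment of the 22 peaks ran from 3.22 to 4.62, with a median of 3.92 and quartiles of 3.50 and 4.05. This is 9.32-fold to 24.6-fold, with a median of 15.2-fold. Over all human peaks the median was 3.68 and the quartiles were 3.33 and 4.14. Of the PSAP peaks, 16 were above the median of the whole list, 5 were above its upper quartile and 3 were below its lower quartile. The highest PSAP peak ranked 2517 of 24831 by enrichment and the lowest ranked 20614.

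Most PSAP peaks were at the highest −log10 p of the list. The value was 400 for 14 of the 22 peaks, or 63.6%, against 2.05% of all human peaks. This p was computed from read counts, so it depends on the number of reads as well as on the enrichment. It does not measure the spread between replicates, and the read numbers are unknown. Across the whole list 510 peaks, in 147 groups of neighbouring peaks, were at 400, and PSAP alone held 2.75% of them. The 8 PSAP peaks under 400 had values from 44.1 to 78.4, against a median of 10.2 for the whole list. A log2 fold enrichment of 4 or more together with a p of 1e-05 or less was reached by 9 PSAP peaks, or 40.9%, against 29.0% of all human peaks. Both shares come from the comparison that chose the gene, so nothing is read from their difference.

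**Figure D1:**
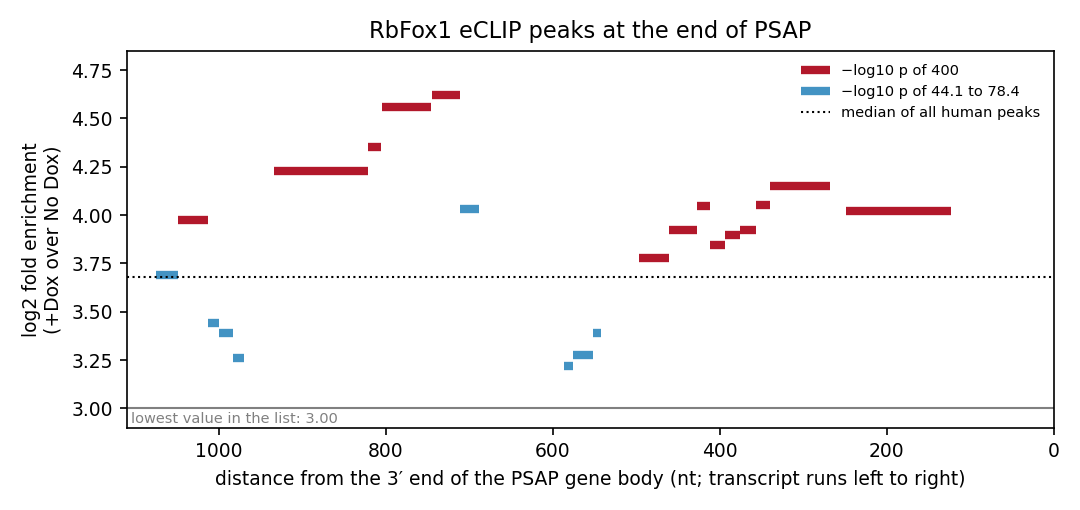
Each bar is 1 PSAP peak, drawn over its width, with the distance from the 3′ end of the gene body in nt on the horizontal axis and the log2 fold enrichment of +Dox over No Dox on the vertical axis, which starts just under the lowest value of the list. The peaks reach 4.62 between 712 and 744 nt from the gene end and are lowest, at 3.22 to 3.39, between 543 and 586 nt.

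The 22 peaks formed 5 stretches when peaks at most 1 nt apart were joined. In the direction of the transcript these stretches were 106, 246, 44, 228 and 126 nt long. The uncovered parts between them were 35, 102, 46 and 20 nt. Together the peaks covered 748 nt, or 78.5%, of the run. The enrichment differed between the stretches in a pattern of high and low parts, visible in the profile of enrichment along the gene end.

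The first stretch, chr10:71817268-71817373, held 5 peaks. In the direction of the transcript their log2 fold enrichments were 3.69, 3.98, 3.44, 3.39 and 3.26. The peak at 3.98, chr10:71817312-71817347, was the only one of the stretch with a −log10 p of 400. The others had −log10 p values of 62.7, 77.8, 78.4 and 70.3. The log2 fold enrichments fell from the second peak to the last.

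The second stretch, chr10:71816987-71817232, was the most enriched. Its 5 peaks had log2 fold enrichments of 4.23, 4.35, 4.56, 4.62 and 4.03, and each of them was above all peaks of the first and the third stretch. The highest PSAP peak, at chr10:71817010-71817042, was 33 nt wide and 24.6-fold enriched. Its neighbour at chr10:71817044-71817102 was 59 nt wide and 23.5-fold enriched. The last peak of this stretch, chr10:71816987-71817009, dropped to 16.4-fold and had a −log10 p of 73.5, while the other 4 were at 400. The median of the stretch, 4.35, was higher than that of the first stretch by 0.91 on the log2 scale.

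After 102 nt without a peak, the third stretch, chr10:71816841-71816884, was the weakest. It held 3 peaks with log2 fold enrichments of 3.22, 3.28 and 3.39, and none of them was at a −log10 p of 400. Their −log10 p values were 49.6, 59.0 and 44.1, the lowest 3 of the gene. The median, 3.28, was lower than that of the second stretch by 1.07 on the log2 scale, and these peaks were still 9.32-fold to 10.5-fold enriched.

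The fourth stretch, chr10:71816567-71816794, held 8 peaks with no base between them, all at a −log10 p of 400. In the direction of the transcript their log2 fold enrichments were 3.78, 3.92, 4.05, 3.85, 3.90, 3.92, 4.05 and 4.15. The values stayed within 0.37 of each other and were highest in the peak nearest to the gene end, chr10:71816567-71816638. The fifth stretch was 1 peak of 126 nt at chr10:71816421-71816546, the widest of the gene, with a log2 fold enrichment of 4.02 and a −log10 p of 400. The 9 peaks of the fourth and the fifth stretch were 13.7-fold to 17.8-fold enriched, under the 24.6-fold of the highest peak of the second stretch.

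Between neighbouring peaks the enrichment mostly changed little. Over the 21 steps from one peak to the next the median absolute change was 0.13 on the log2 scale. The largest was 0.97, between the last peak of the first stretch and the widest peak of the second, which lie 35 nt apart. Neighbouring peaks of 1 transcript share libraries and can share reads, so they are not independent measurements.

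**Figure D2:**
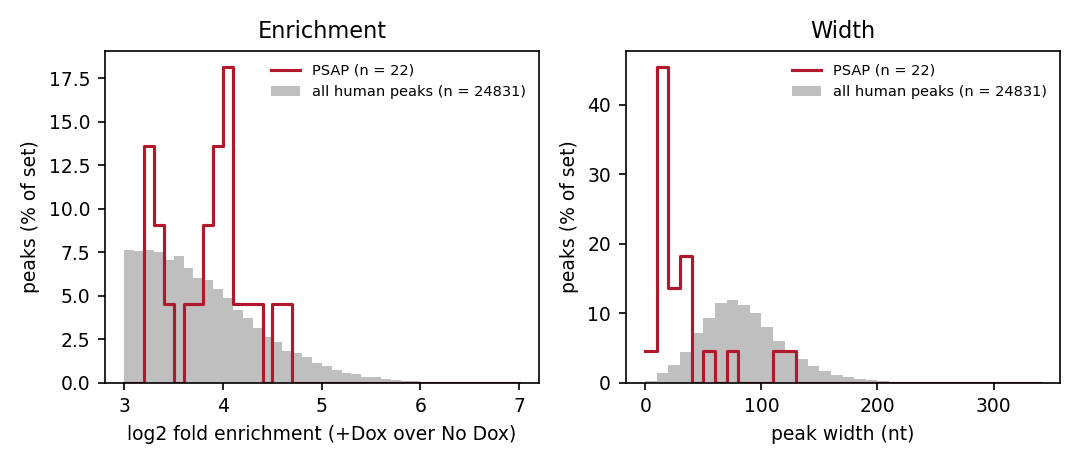
The left panel shows the log2 fold enrichment and the right panel the width in nt of the 22 PSAP peaks (red line) and of all 24831 human peaks (grey bars), each as a percentage of its set. The PSAP peaks have a median log2 fold enrichment of 3.92 against 3.68 and are narrow, with a median width of 21 nt against 82 nt.

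The PSAP peaks were narrow. Their median width was 21 nt, with a range of 9 to 126 nt, while all human peaks had a median of 82 nt. Of the 22 peaks, 18 were at most 36 nt wide, or 81.8%, against 6.60% of all human peaks. In PSAP 20 of the 22 peaks, or 90.9%, touched another peak with no base between them, against 40.7% of all human peaks. The covered bases of PSAP were thus divided into many short adjoining peaks. PSAP was chosen for its dense peaks, while the whole list also holds groups of few peaks. Nothing is therefore read from the difference in touching peaks, and this share was not computed for other dense sites. With touching peaks joined, the run had 7 regions in place of 22.

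Among the PSAP peaks, wider peaks tended to have a higher log2 fold enrichment. The 4 peaks of 59 nt or more had values from 4.02 to 4.56, and all 4 were at a −log10 p of 400. The 4 peaks of at most 14 nt had values from 3.22 to 3.44, and none was at 400. Across the 22 peaks Pearson's r was 0.43 and Spearman's rho 0.51, which describes neighbouring peaks of the same libraries and is not a test. Several peaks did not follow this order. The most enriched peak was 33 nt wide, a peak of 16 nt reached 4.35, and the widest, of 126 nt, had 4.02. The 4 peaks of at most 14 nt all lay in the first and the third stretch, so their width and position cannot be told apart. Over all human peaks r was -0.02 and rho -0.02.

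**Figure D3:**
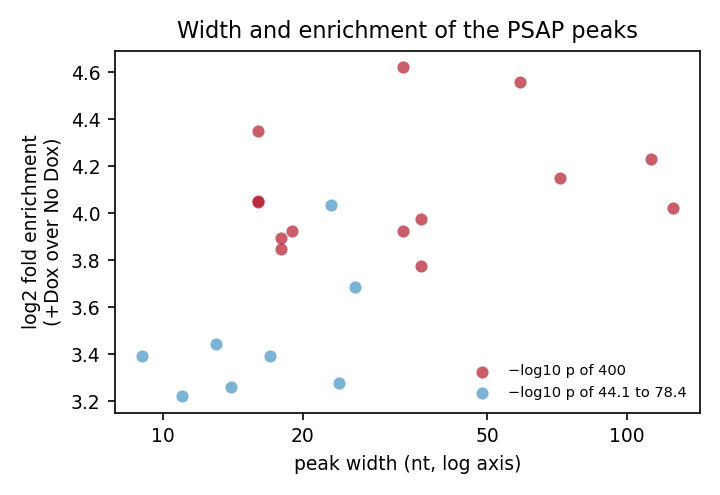
Each point is 1 of the 22 PSAP peaks, with its width in nt on a log axis and its log2 fold enrichment of +Dox over No Dox, and darker spots are points that overlap. Peaks under a −log10 p of 400 (blue) are all at most 26 nt wide and, but for the one at 4.03, lie at 3.69 or below.

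To place PSAP among other dense sites, same-strand peaks at most 500 nt apart were taken as 1 group, which gave 9787 groups. Of these, 189 held at least 10 peaks and are called runs here. The PSAP run ranked 7 of all groups by number of peaks, with 22, against a median of 11 over the 189 runs and a maximum of 54. With 14 peaks at a −log10 p of 400 it was tied with 1 other run, and 3 runs had more. It held 23.1 peaks per 1000 nt, against a median of 12.2, and 2 runs were denser. Its median peak width of 21 nt was the lowest but 1 of the 189. The rank by number of peaks depended on how peaks were counted. It was 50, tied with 64 other groups, with touching peaks joined, 40 with groups closed at 100 nt and 41 with only the peaks of at least 4 on the log2 scale and a p of 1e-05 or less.

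By enrichment the PSAP run was in the lower part of the runs. Its median log2 fold enrichment of 3.92 was below the median of 4.07 over the 189 runs, and 119 runs were higher. Among all 9787 groups, which include those of few peaks, its median ranked 2442 from the highest. Its most enriched peak, at 4.62, was below that of 127 runs. Its span of 953 nt was close to the median of 970 nt, and the peaks covered 78.5% of it against a median of 75.9%. The difference between its highest and lowest peak, 1.40, was also near the median of 1.53.

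**Figure D4:**
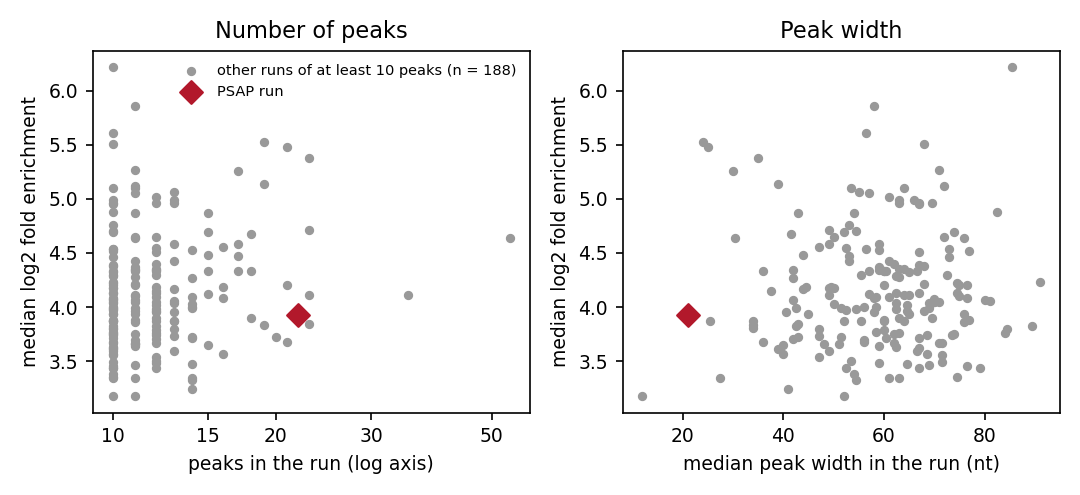
Each point is 1 run of at least 10 same-strand peaks, with the number of peaks (left, log axis) or the median peak width in nt (right) against the median log2 fold enrichment of the run. The PSAP run (red diamond) lies to the right of most runs by number, far to the left by width, and in the lower part by enrichment.

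A run with no other peak on its 5′ side was not rare. Of the 189 runs, 93, or 49.2%, had no same-strand peak in the 33952 nt on their 5′ side, the length of the PSAP gene body beyond its run. For the other runs this stretch was set by length alone, without gene borders, and may reach beyond their gene. The distance from the PSAP run to its nearest other same-strand peak, 317679 nt, was long for a run. The median over the runs was 8038 nt, and 13 runs had a longer distance.

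The runs most like PSAP were taken as those with the smallest summed difference in number of peaks and in median log2 fold enrichment, each divided by its SD over the 189 runs. The nearest was chr12:110346320-110347843 on the + strand, with 23 peaks, a median log2 fold enrichment of 3.84 and 15 peaks at a −log10 p of 400. The next was chr20:25285247-25286907 on the + strand, with 23 peaks and a median of 4.11, and then chr9:88476461-88477899 on the + strand, with 21 peaks and a median of 3.67. Neither of these last runs had a peak at 400, and all 3 had wider peaks than PSAP, with median widths of 43, 49 and 36 nt. These runs are given by position, since genes other than PSAP were not named from these data.

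The same libraries also gave peaks on the mouse minigene, in a separate list of 7. Their log2 fold enrichments ran from 3.14 to 4.13 and their median was 3.78. Of the 22 PSAP peaks 5 were above the highest minigene peak and 0 were below the lowest, while 2 of the 7 minigene peaks were at a −log10 p of 400. The highest minigene value, 4.13, lay close to the upper quartile of all human peaks, 4.14, so nothing is read from the count of 5. The genes of the lysosomal pathway that prosaposin serves, such as those for arylsulfatase A and glucocerebrosidase, and the genes on either side of PSAP were not analysed here.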

How the data were processed

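RbFox1 eCLIP libraries of 77-5 cells, +Dox (n = 2) and No Dox (n = 2), were grouped by the sample titles. The authors trimmed molecular identifiers and adapters, discarded repeat and rRNA reads, aligned the remaining reads to hg38 plus the minigene (STAR), collapsed PCR duplicates (UMI-tools) and called peaks with CLIPper. The authors deposited for each merged peak a log2 fold enrichment from library-normalized read counts and a −log10 p from a Fisher's exact test or, for higher counts, a Yates' chi-square test. The deposited lists are labelled IDR (irreproducible discovery rate), but how replicates were merged is not described in the sources used here.

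The deposited lists were read with Python 3.11.15, pandas 2.3.3, numpy 2.4.6 and scipy 1.17.1, and positions were counted from 1. Peaks on the − strand overlapping the gene body were taken as PSAP peaks. Same-strand peaks at most 500 nt apart formed a group, and groups of at least 10 peaks are called runs. Grouping was tested on simulated data. No test was run, since the lists hold 1 value per peak and PSAP was chosen on it. The gene, the lists and the measures were chosen with earlier results of these data known. The rule for named items was PSAP, its peaks, its neighbours, lysosomal genes and the 3 runs most like PSAP. The neighbours, the lysosomal genes and comparisons with other named genes needed a human annotation and were not analysed here. The widths, touching peaks and distances between peaks were examined after the values were seen. The third list, which compares the WT with the deleted minigene, holds no human position and was not used here.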

Additional observations from a re-analysis of the deposited data

How the results depend on the processing

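No paired analysis was possible because each peak has a single value, merged over replicates, and no replicate could be left out either. With a p of 0.001 or less alone all 22 PSAP peaks were kept, as the list already holds only such peaks. A log2 fold enrichment of 4 or more with a p of 1e-05 or less left 9 peaks. They could only lie in the 3′ end run, which held all 22 peaks, and the rest of the gene could only hold 0. The median of the 9 peaks was 4.15, which is higher by construction. The run then ranked 41 by number of peaks, tied with 25 other groups. Joining peaks that touch left 7 regions, and the rank became 50, tied with 64 others. Joining peaks at most 1 nt apart left 5. The rank of 50 and the count of 5 were added after seeing the data. With groups closed at 100 nt the run broke at its gap of 102 nt, its larger part held 12 peaks and ranked 40, tied with 16 others. At 1000 nt the run kept 22 peaks and ranked 9. The median log2 fold enrichment of 3.92 was 4.02 as a mean weighted by width, 3.92 without the most enriched peak and 3.39 without the 14 peaks at a −log10 p of 400. The difference in medians between the run and the rest of PSAP could not be computed, since the rest holds no peak. The alternatives for motifs, gene regions and pathway genes were not run, since no human genome or annotation was used here. Depth is unknown, which limits what the stretches without a peak show.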
